A study of Danio rerio with 5 samples.

Results

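Skeletal muscle myosins and parvalbumins were followed in whole zebrafish embryos in which Bdh2 had been targeted with a morpholino. They were chosen by symbol in the array's annotation: mylpfa, myl13, myl10, mylz3, myhz1.3, smyhc1, pvalb1, pvalb2, pvalb3 and pvalb4. All 10 genes are on the array, among 8793 genes with a symbol of their own, in 11 probe sets, because mylpfa has 2. The study compared 3 groups of embryos at 72 h after fertilization, on 5 arrays in all. The group with ectopic Bdh2, 1 array, came from Bdh2 morphants co-injected with a capped synthetic mRNA made from mouse bdh2 cDNA at 50 µg/ml. The Bdh2 morphants (2 arrays) and the control morphants (2 arrays) had the morpholino injection without that mRNA. All embryos were wild type and received a morpholino (130 µmol/L) between the 1-cell and 2-cell stage, controls included. The labels give neither the number of embryos in a sample nor the clutches they came from, so a p-value measures only the spread between these samples.

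Muscle shortens when myosin heads, driven by ATP, pull on actin filaments. Each heavy chain carries an essential and a regulatory light chain near its head, and fast and slow fibres use different heavy and light chains. Parvalbumins are small calcium-binding proteins of the EF-hand family. They are abundant in the fast trunk muscle of fish, where they take up calcium after a twitch and speed relaxation. In whole embryos, fewer muscle cells and less of these transcripts per cell cannot be told apart.

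Levels are given as linear intensities of probe sets, and differences as log2 differences of (intensity + 16) with their standard error (SE). Fold values are these differences on a linear scale, so they too refer to intensity + 16 and not to the printed intensities. A probe set was called where the adjusted p from limma, over all 9301 tested probe sets, lay under 0.05. A probe set or gene is said to have fallen only where it was called with a negative difference. All 11 probe sets passed the filter on low values, and 6201 others of the array did not. Array medians lay between 142 and 174, and the median difference of all tested probe sets was 0.12 with ectopic Bdh2 against either other group. The bdh2 probe set read 142 with ectopic Bdh2, 235 and 643 in the Bdh2 morphants, and 344 and 335 in the control morphants in that order of replicates. Which step of bdh2 expression the morpholino blocks is not stated, and the injected mRNA was of mouse sequence, so this probe set does not check the labels. The array with ectopic Bdh2 has no replicate, and its spread is assumed to be that of the other groups.

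With ectopic Bdh2, the myosin and parvalbumin transcripts were far lower than in Bdh2 morphants and in control morphants. Against Bdh2 morphants, 9 of 11 probe sets were called lower, beside 0.505% of all tested probe sets. Against control morphants, 10 of 11 were called lower, beside 0.667%. The array with ectopic Bdh2 was below both arrays of the other group for all 11 probe sets in each comparison, beside 29.9% and 28.9% of the tested probe sets. The median difference of the 11 was -3.23 from Bdh2 morphants and -3.38 from control morphants. Both comparisons rest on the same single array, so they are not independent of each other. The genes were chosen with earlier results of these data known, so these counts describe them and are no test of the list.

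**Figure D1:**
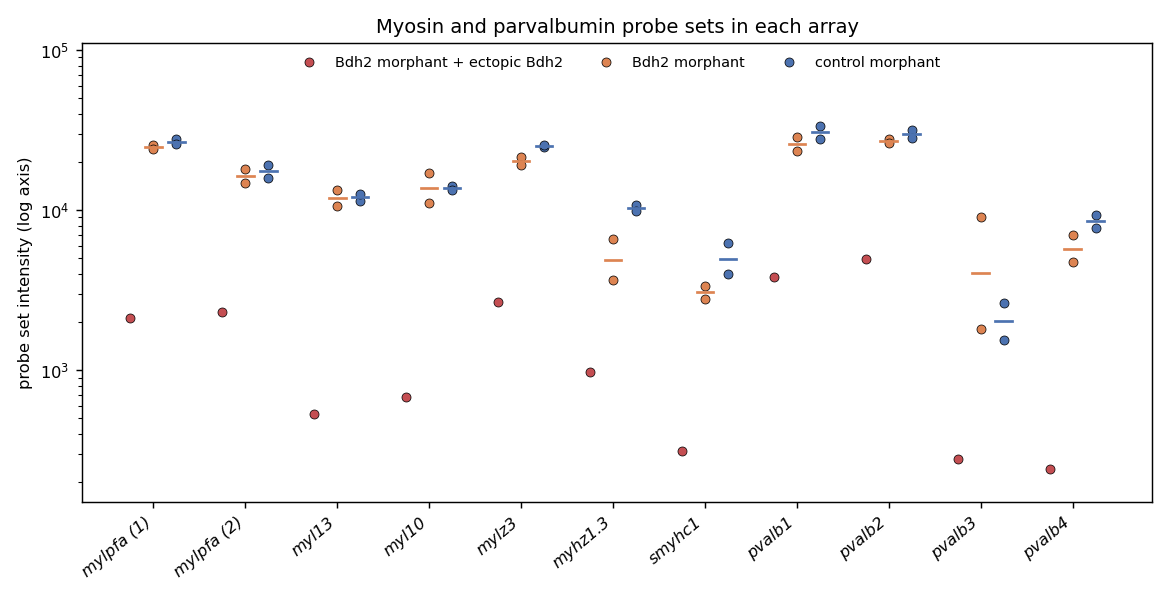
Intensity (log axis) of each of the 11 probe sets in each of the 5 arrays; points are arrays, short bars are geometric means of the groups with 2 arrays, and mylpfa (1) and (2) are its first and second probe set. The point of the array with ectopic Bdh2 lies below the other 4 for every probe set.

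Among the light chains, mylpfa codes for the regulatory light chain of fast muscle. Its first probe set read 2132 with ectopic Bdh2, 25478 and 24193 in Bdh2 morphant replicates 1 and 2, and 27696 and 25700 in control morphant replicates 1 and 2. The array with ectopic Bdh2 was the low one, and the other 4 arrays lay close together. The difference from Bdh2 morphants was -3.53 (SE 0.22; limma adjusted p = 0.00827), or 11.6-fold lower, and that from control morphants was -3.64 (SE 0.22; limma adjusted p = 0.00487). The second probe set of the gene read 2305 with ectopic Bdh2, 18078 and 14849.9 in Bdh2 morphants, and 19258 and 15896 in control morphants. It showed the same order with a smaller change, -2.82 from Bdh2 morphants (SE 0.27; limma adjusted p = 0.0119) and -2.92 from control morphants (SE 0.27; limma adjusted p = 0.00844).

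The transcript of mylz3, an essential light chain of fast muscle, read 2677 with ectopic Bdh2, 21365 and 19136 in Bdh2 morphants, and 24742 and 25415 in control morphants. Here the 3 groups did not overlap, with ectopic Bdh2 lowest and control morphants highest. It fell against both, with differences of -2.91 from Bdh2 morphants (SE 0.23; limma adjusted p = 0.0092) and -3.22 from control morphants (SE 0.23; limma adjusted p = 0.00487). The myosin light chain gene myl13 read 530.4 with ectopic Bdh2, 10533 and 13419.7 in Bdh2 morphants, and 11451 and 12682 in control morphants. Bdh2 and control morphants overlapped for this gene, while ectopic Bdh2 was 21.8-fold below the Bdh2 morphants (-4.45, SE 0.30; limma adjusted p = 0.00827) and 22.1-fold below the control morphants (-4.46, SE 0.30; limma adjusted p = 0.00487). A light chain of the regulatory family, myl10, read 682 with ectopic Bdh2, 10999.9 and 16974 in Bdh2 morphants, and 14113 and 13309.8 in control morphants. It was 19.6-fold below Bdh2 morphants (-4.29, SE 0.34; limma adjusted p = 0.0092) and 19.7-fold below control morphants (-4.30, SE 0.34; limma adjusted p = 0.00487).

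The heavy chains carry the motor itself. The fast heavy chain gene myhz1.3 read 971 with ectopic Bdh2, 3644 and 6589 in Bdh2 morphants, and 10709 and 9824 in control morphants. The 3 groups did not overlap, and the Bdh2 morphants lay between the others. Its difference was -2.32 from Bdh2 morphants, which did not pass (SE 0.41; limma adjusted p = 0.0973), and -3.38 from control morphants, which did (SE 0.41; limma adjusted p = 0.0174). Fast heavy chain genes are close relatives, and a probe set of 1 of them may also record others. A further probe set is annotated to 6 such genes at once, myhz1.3 included, and is assigned to none. It read 3078 with ectopic Bdh2, 17193 and 17489.5 in Bdh2 morphants, and 28037 and 24501 in control morphants, with differences of -2.49 from Bdh2 morphants (SE 0.23; limma adjusted p = 0.0115) and -3.08 from control morphants (SE 0.23; limma adjusted p = 0.00487).

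The slow heavy chain gene smyhc1 read 313 with ectopic Bdh2, 3355 and 2796 in Bdh2 morphants, and 3975 and 6231 in control morphants. It too had no overlap between groups, in the same order as myhz1.3. It was 9.36-fold below Bdh2 morphants (-3.23, SE 0.40; limma adjusted p = 0.0299) and 15.2-fold below control morphants (-3.92, SE 0.40; limma adjusted p = 0.0093). With no filter on low values its call against Bdh2 morphants was lost (limma adjusted p = 0.0813). That call was also lost when either Bdh2 morphant array was left out, with differences of -3.36 and -3.10.

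Of the parvalbumins, pvalb4 had the lowest difference of all 9301 tested probe sets in both comparisons with ectopic Bdh2. It read 239.8 with ectopic Bdh2, 6955 and 4759 in Bdh2 morphants, and 9321 and 7776 in control morphants. The groups did not overlap. The array with ectopic Bdh2 was 22.6-fold below Bdh2 morphants (-4.50, SE 0.37; limma adjusted p = 0.0092) and 33.3-fold below control morphants (-5.06, SE 0.37; limma adjusted p = 0.00487). Ranked within each array, which needs no scaling between arrays, pvalb4 stood above 56.5% of the probe sets with ectopic Bdh2, above 98.0% and 96.6% in the Bdh2 morphants and above 98.3% and 98.1% in the control morphants. That was the lowest rank of the described probe sets with ectopic Bdh2. The highest was that of pvalb2, above 97.6% with ectopic Bdh2 and above 99.4% to 99.8% on the other arrays.

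The transcript of pvalb1 read 3822 with ectopic Bdh2, 28800.4 and 23534 in Bdh2 morphants, and 33688 and 27701 in control morphants. Bdh2 and control morphants overlapped, and ectopic Bdh2 was 6.79-fold below Bdh2 morphants (-2.76, SE 0.25; limma adjusted p = 0.00942) and 7.96-fold below control morphants (-2.99, SE 0.25; limma adjusted p = 0.00564). For pvalb2 the values were 4983 with ectopic Bdh2, 27940.4 and 26426 in Bdh2 morphants, and 31466 and 28231 in control morphants, with no overlap. It was 5.44-fold below Bdh2 morphants (-2.44, SE 0.21; limma adjusted p = 0.0092) and 5.96-fold below control morphants (-2.58, SE 0.21; limma adjusted p = 0.00564).

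The most variable of the 11 probe sets was that of pvalb3. It read 278 with ectopic Bdh2, 9094 and 1813 in Bdh2 morphants, and 2632 and 1552 in control morphants. Bdh2 morphant replicate 1 was far above the other 4 arrays, and Bdh2 and control morphants overlapped. Ectopic Bdh2 was again lowest, but neither difference passed, at -3.79 from Bdh2 morphants (SE 0.88; limma adjusted p = 0.211) and -2.79 from control morphants (SE 0.88; limma adjusted p = 0.494). Replicates 2 and 1 of the Bdh2 morphants differed by -2.32 for pvalb3, while for the other 10 probe sets the same difference ran from -0.55 for pvalb4 to 0.85 for myhz1.3.

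The measured size of the change differed among the probe sets, also between the 2 of mylpfa (-3.53 and -2.82 from Bdh2 morphants). Against Bdh2 morphants, pvalb4 and myl13 had the lowest differences of the 11. Their 95% intervals (-5.37 to -3.62 and -5.16 to -3.73) did not overlap that of pvalb2 (-2.95 to -1.93). All these sizes rest on the same single array, and whether the genes differ in their response was not tested. Light and heavy chains together had a median of -3.23 and parvalbumins one of -3.28. Of the 11 probe sets, 10 were among the 100 with the lowest differences from Bdh2 morphants, and myhz1.3 stood at rank 106. Against control morphants 10 were among the 100 lowest, and pvalb2 stood at rank 103. Probe sets with very bright signals in control morphants (mylpfa, mylz3, pvalb1 and pvalb2) had differences from control morphants of -3.64 to -2.58. Those of the less bright pvalb4, myl13, myl10, smyhc1, myhz1.3 and pvalb3 ran from -5.06 to -2.79, so the 2 ranges overlapped. The highest intensity on an array was 33261 with ectopic Bdh2 and lay between 34351 and 52273 on the others; the deposited table marks no saturated spots, and a part of signal compression in these sizes was not tested.

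**Figure D2:**
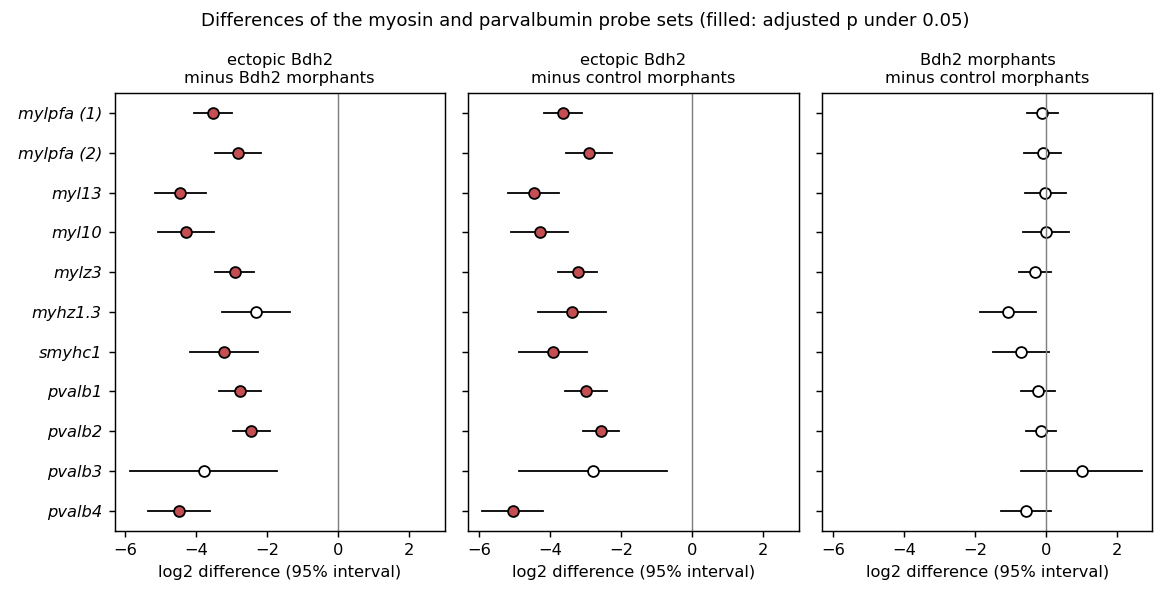
Log2 differences with 95% intervals from limma for the 11 probe sets in 3 comparisons; filled points have an adjusted p under 0.05. Every point of both comparisons with ectopic Bdh2 lies left of 0, between -5.06 and -2.32, whereas the points of Bdh2 morphants minus control morphants lie between -1.06 and 1.00 and none is filled.

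The calls against Bdh2 morphants changed with the arrays kept and with the prior used for the spread. The count of 9 became 0 without Bdh2 morphant replicate 2 and 0 with a prior that takes no account of intensity, with limma adjusted p of 0.0649 or more and 0.0887 or more. In both settings all 11 probe sets were lower with ectopic Bdh2 than in Bdh2 morphants. With the prior that takes no account of intensity, 0 of all 9301 tested probe sets were called in this comparison. The count of 10 against control morphants was 8 with the prior that takes no account of intensity and 10 without Bdh2 morphant replicate 2.

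Between Bdh2 morphants and control morphants, none of the 11 probe sets passed (limma adjusted p = 1.00 for each, and 0% of all tested probe sets were called lower), and 1 had an unadjusted p under 0.05, that of myhz1.3. The median difference of the 11 was -0.13, against -0.01 for all tested probe sets. As deposited, 10 of 11 were lower in Bdh2 morphants, beside 50.7% of all tested probe sets. With each array centred on its median, 7 of 11 were lower. The share of all tested probe sets that were lower after centring was not counted. Centring shifts all differences alike: the median of the 11 became -0.03, and that of all tested probe sets 0.10. For 6 of 11 both Bdh2 morphant arrays lay below both control arrays, beside 14.1% of all tested probe sets: the first probe set of mylpfa, mylz3, myhz1.3, smyhc1, pvalb2 and pvalb4. The other 5 overlapped.

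Both heavy chains had the lowest differences of the 11 in this comparison. For myhz1.3 the difference was -1.06 (SE 0.33), and within replicate numbers 1 and 2 it was -1.55 and -0.58. For smyhc1 it was -0.70 (SE 0.33), and within numbers -0.24 and -1.15. The values of pvalb4 were -0.56 (SE 0.30), and within numbers -0.42 and -0.71. The probe set shared by 6 fast heavy chains was at -0.60 (SE 0.19; limma adjusted p = 1.00). For light chains the differences were small, -0.10 and -0.09 for the probe sets of mylpfa, -0.02 for myl13 and -0.0043 for myl10, with mylz3 at -0.31. The 95% intervals of these 5 reached from -0.76 to 0.65. The 1 positive value was that of pvalb3, 1.00 (SE 0.71), and it was -0.16 without Bdh2 morphant replicate 1.

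Other genes of the sarcomere were taken from lists of known muscle genes. Myosin forces are passed on along the thin filament of actin, tropomyosin and troponin. Of 16 genes of the fast thin filament, 11 were on the array and 9 were tested. All 9 were lower with ectopic Bdh2 than in each of the other groups, and 6 of the 9 were called. The median difference of the 9 was -2.82 from Bdh2 morphants and -3.27 from control morphants. The fast troponin genes tnni2a.4 (troponin I, -3.10, SE 0.27), tnnc2.2 (troponin C, -2.86, SE 0.25) and tnnt3a (troponin T, -2.97, SE 0.31) and the tropomyosin gene tpma (-2.28, SE 0.25) were among those that fell from Bdh2 morphants, with limma adjusted p of 0.0092, 0.0092, 0.0168 and 0.0175 in that order. In Bdh2 morphants against control morphants the median of the 9 was -0.59, and 0 passed.

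Among other skeletal myosins, only myl1 of 12 listed genes had a probe set of its own. This essential light chain gene of fast muscle read 2142 with ectopic Bdh2, 12845 and 14376 in Bdh2 morphants, and 17824 and 15536 in control morphants, and fell by 2.66 from Bdh2 morphants (SE 0.26; limma adjusted p = 0.0119). Of 12 genes of thick filament partners 5 were tested and all 5 were lower with ectopic Bdh2 than in Bdh2 morphants, with a median of -2.07. Of these, mybphb, a myosin-binding protein gene, fell (-2.38, SE 0.31; limma adjusted p = 0.0331). The differences of hsp90aa1.1 (-2.53, SE 0.49), a chaperone of myosin folding in zebrafish muscle, its partner unc45b (-2.07, SE 0.57) and the titin gene ttn.2 (-2.01, SE 0.59) did not pass, with limma adjusted p of 0.140, 0.287 and 0.305.

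Calcium handling sets the pace of contraction. Of 16 listed genes of calcium release and uptake, 3 were tested and 2 fell: atp2a1, the calcium pump of fast muscle (-2.96, SE 0.30; limma adjusted p = 0.0131), and srl, which codes for sarcalumenin, a calcium-binding protein of the sarcoplasmic reticulum (-3.05, SE 0.42; limma adjusted p = 0.0367). The related atp2a1l differed by -0.73 (SE 1.16; limma adjusted p = 0.837). The calls of all 8 genes said to have fallen in these muscle lists (myl1, mybphb, tnni2a.4, tnnc2.2, tnnt3a, tpma, atp2a1 and srl) were lost against Bdh2 morphants without Bdh2 morphant replicate 2 (limma adjusted p = 0.0751 to 0.103) and with the prior that takes no account of intensity (0.0887 to 0.118). With no filter on low values 5 were lost, those of mybphb, tnnt3a, tpma, atp2a1 and srl (0.0548 to 0.0901), and without Bdh2 morphant replicate 1 those of mybphb, tpma and srl were lost (0.0516 to 0.0672); that of srl was also lost with an added constant of 64 (limma adjusted p = 0.0523). Of 10 further slow fibre genes only the tropomyosin gene tpm3 was tested, at -0.37 (SE 0.36; limma adjusted p = 0.708).

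Transcription factors that direct muscle formation were listed too. Of 18 genes 12 were on the array and 7 were tested, and 0 passed in any comparison. With ectopic Bdh2 their median difference was -0.31 from Bdh2 morphants, with 6 of 7 lower, and -0.94 from control morphants, with 7 of 7 lower (-1.94 to -0.21). The 4 with the smallest p were mef2ca (-1.78, SE 0.74), six4b (-0.97, SE 0.43), six4a (-0.78, SE 0.53) and myod1, a master regulator of the muscle lineage (-0.31, SE 0.56), with limma adjusted p from 0.399 for mef2ca to 0.855 for myod1. Intensities of myod1 were 71.7 with ectopic Bdh2, 144 and 58.4 in Bdh2 morphants, and 166 and 140 in control morphants.

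**Figure D3:**
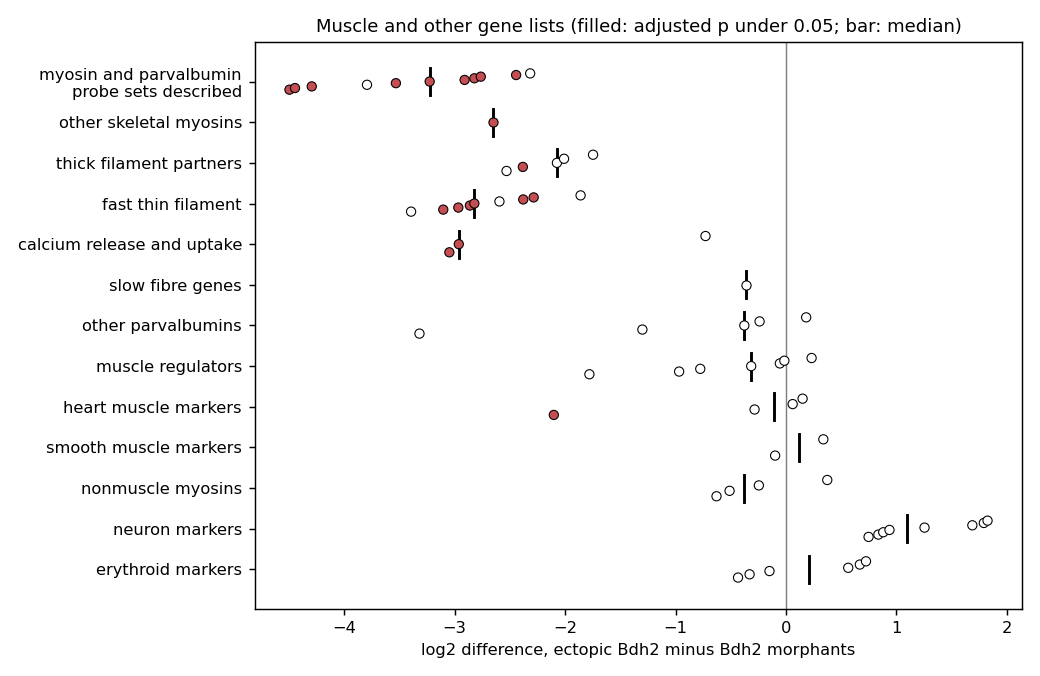
Log2 differences, ectopic Bdh2 minus Bdh2 morphants, for the 11 probe sets and for the tested genes of 12 lists; each point is a gene (a probe set in the top row), bars are medians and filled points have an adjusted p under 0.05. Filled points of the thin filament, thick filament and calcium lists lie between -3.10 and -2.28, and the 8 neuron markers lie right of 0.

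Markers of other cell types were read the same way. Of 11 heart muscle markers 5 were on the array and 4 were tested. With ectopic Bdh2 against Bdh2 morphants, actc1a, an actin gene of heart and other striated muscle, fell (-2.10, SE 0.24; limma adjusted p = 0.0227); it too was not called without Bdh2 morphant replicate 2 or with the prior that takes no account of intensity, where 0 of all tested probe sets were called. The heart light chain genes myl7 (0.15, SE 0.47) and cmlc1 (-0.28, SE 0.54) and the heart troponin gene tnnt2a (0.06, SE 0.61) did not pass, with limma adjusted p of 0.920, 0.868 and 0.977. The 5 heart markers summed to 7642 with ectopic Bdh2, 22219 and 21062 in Bdh2 morphants and 28691 and 22806 in control morphants. Most of that sum was actc1a, and without it the other 4 summed to 3464 with ectopic Bdh2, 4695 and 2600.2 in Bdh2 morphants and 4736 and 3103 in control morphants, so that ectopic Bdh2 lay within the range of the other arrays.

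Nonmuscle myosins power cell division and migration in all tissues. Of 8 listed genes 5 were on the array and 4 were tested, with a median of -0.38 from Bdh2 morphants and 0 that passed. The light chain gene myl12.1 read 10616 with ectopic Bdh2, 11850.4 and 13369 in Bdh2 morphants, and 13018 and 12210.1 in control morphants. Its difference from Bdh2 morphants was -0.25 (SE 0.24; limma adjusted p = 0.713). Smooth muscle markers (5 of 8 on the array, 2 tested) had a median of 0.12, 0 passed, and their sum was 635 with ectopic Bdh2, 1126 and 351 in Bdh2 morphants and 685 and 634 in control morphants.

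Neuron markers (8 of 9 on the array and tested) were higher with ectopic Bdh2 than in Bdh2 morphants for all 8, with a median of 1.096, and 0 passed. Against control morphants 7 of 8 were higher with ectopic Bdh2 (median 0.50), and in Bdh2 morphants 8 of 8 were lower than in control morphants (median -0.85), and 0 passed in either. They summed to 17859 with ectopic Bdh2, 11438 and 5500 in Bdh2 morphants, and 14269 and 11210.5 in control morphants. Erythroid markers (6 of 10 on the array and tested) had a median of 0.21, 0 passed, and they summed to 35189 with ectopic Bdh2, 58414 and 33475 in Bdh2 morphants, and 70964 and 33916 in control morphants. Most of that sum was the globin gene hbae3, at 25464.5 with ectopic Bdh2, 40785 and 29022 in Bdh2 morphants, and 39125 and 26341 in control morphants. Each of the erythroid markers read higher in replicate 1 than in replicate 2 of both groups with replicates. No marker of these lists was at 0 on an array. The part of tissue makeup in the myosin and parvalbumin differences was not tested.

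The array carries control probe sets along the skeletal actin transcript acta1, and each was lowest with ectopic Bdh2. The 3′ probe set read 8310 with ectopic Bdh2, 39961 and 36220.5 in Bdh2 morphants, and 44265 and 33261 in control morphants. The 5′ probe set read 1253 with ectopic Bdh2, 3379 and 10386 in Bdh2 morphants, and 10339.6 and 12776 in control morphants, so that Bdh2 morphant replicate 1 was low as well at this end. The 3′/5′ ratio of acta1, which is higher in degraded RNA, was 6.63 with ectopic Bdh2, 11.8 and 3.49 in Bdh2 morphants, and 4.28 and 2.60 in control morphants. For gapdh this ratio was 1.99 with ectopic Bdh2, 2.82 and 1.71 in Bdh2 morphants, and 2.68 and 1.504 in control morphants. On both measures the array with ectopic Bdh2 lay between the Bdh2 morphant arrays; its acta1 ratio was above both control arrays, and its gapdh ratio lay between them. The part of RNA quality in the myosin and parvalbumin differences was not tested.

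Besides pvalb1 to pvalb4, the array holds pvalb5, pvalb6, pvalb7, pvalb8 and pvalb9. In the fit of all 5 arrays with a mean per group, none of these 5 passed in any comparison. With ectopic Bdh2 pvalb9 read 701, against 4135 and 12299 in Bdh2 morphants and 4618 and 5648 in control morphants, a difference from Bdh2 morphants of -3.32 (SE 0.61; limma adjusted p = 0.114). With 1 Bdh2 or control morphant array left out, this difference ran from -4.10 to -2.53, and whether it passed depended on the array. The transcript of pvalb9 was thus low in the same array as the named parvalbumins, while its bright Bdh2 morphant array was replicate 2, not replicate 1 as for pvalb3. The values of pvalb8 were 792 with ectopic Bdh2, 1094 and 3553 in Bdh2 morphants, and 1350 and 1508 in control morphants (-1.30 from Bdh2 morphants, SE 0.66; limma adjusted p = 0.492). For pvalb5 they were 749 with ectopic Bdh2, 1115 and 857 in Bdh2 morphants, and 1450 and 635 in control morphants (-0.38, SE 0.55; limma adjusted p = 0.821). Both pvalb6 and pvalb7 were dim, between 61.9 and 207 on every array, with differences of -0.24 and 0.18.

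Most parvalbumin genes lie in clusters. On the RefSeq assembly GRCz12tu, pvalb9, pvalb3 and pvalb2 are neighbours with 0 protein-coding genes between each and the next, and so are pvalb8, pvalb4, pvalb1 and pvalb5. In the first cluster pvalb2 fell from Bdh2 morphants (-2.44, SE 0.21). Its neighbours pvalb3 (-3.79, SE 0.88) and pvalb9 (-3.32, SE 0.61) had lower differences but larger SE and did not pass. In the second cluster pvalb4 and pvalb1 fell, while the flanking pvalb8 and pvalb5 did not pass. Whether these genes differ from each other in their response was not tested.

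**Figure D4:**
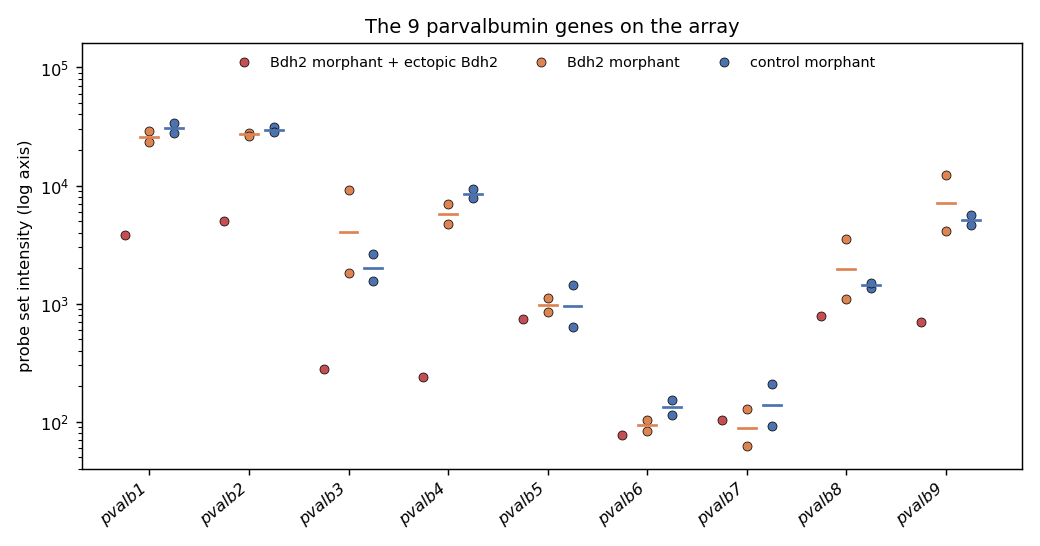
Intensity (log axis) of the 9 parvalbumin genes in each of the 5 arrays; points are arrays and short bars are geometric means of the groups with 2 arrays. The array with ectopic Bdh2 lies lowest for pvalb1 to pvalb4, pvalb6, pvalb8 and pvalb9, and within the spread of the other arrays for pvalb5 and pvalb7.

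The mean profile of the 11 probe sets over the 5 arrays was set against every other tested gene, each centred on its own mean. Likeness was the root-mean-square difference in log2 units, over 5 arrays that include the single low one. The 8 nearest genes were nme2b.2, a nucleoside diphosphate kinase gene (0.12), tnni2a.4 (0.14), the adenylate kinase gene ak1 (0.17), col9a3, which codes for a chain of cartilage collagen (0.18), atp2a1 (0.22), tnnc2.2 (0.22), tnnt3a (0.24) and tmem38a, a cation channel gene of the sarcoplasmic reticulum (0.25). Among the 11 themselves the distance from their mean ran from 0.075 for the first probe set of mylpfa to 0.89 for pvalb3. The kinase transcript nme2b.2 read 731 with ectopic Bdh2, 8074 and 8245 in Bdh2 morphants, and 10601 and 10241 in control morphants. That of col9a3 read 289 with ectopic Bdh2, 2836 and 2153 in Bdh2 morphants, and 3970 and 3134 in control morphants.

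**Figure D5:**
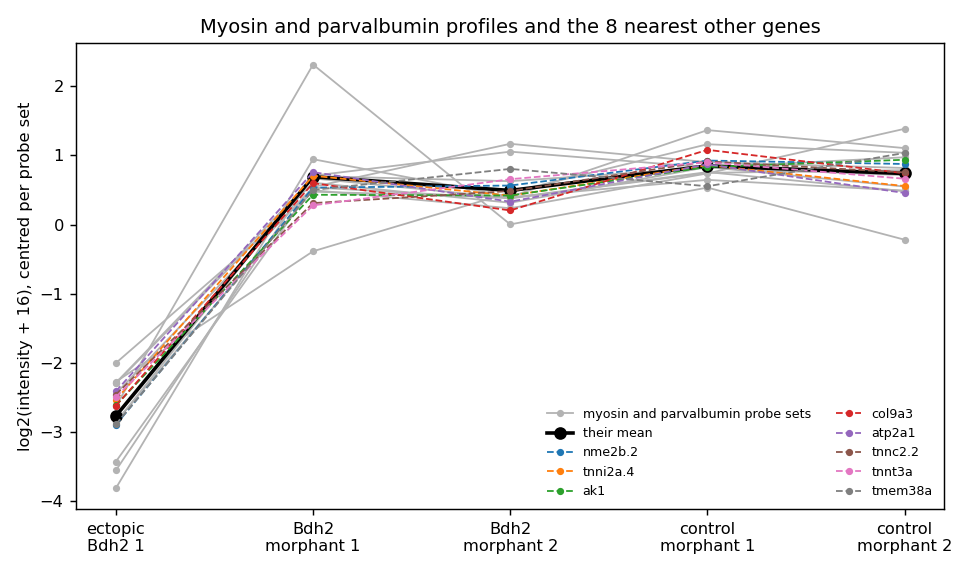
Values of log2(intensity + 16), each centred on its mean over the 5 arrays, for the 11 myosin and parvalbumin probe sets (grey), their mean (black) and the 8 other genes nearest to that mean (dashed). All lines are lowest at the array with ectopic Bdh2, and the grey line that peaks at Bdh2 morphant replicate 1 is pvalb3.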

How the data were processed

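Total RNA of zebrafish embryos was biotin-labelled and hybridised to Affymetrix arrays, 1 sample per array. The deposited values are linear probe set intensities, made with Affymetrix Expression Console per the submitters' processing notes; the sources used here give no version, summarisation or scaling. The number of arrays limits the precision.

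Intensities were converted to log2(intensity + 16) without further normalisation. The 115 control probe sets were set aside, and probe sets whose mean lay above the 40th percentile (an intensity of 97.6) were tested. All 5 arrays entered 1 fit with a mean per group (limma 3.58.1, R 4.3.3, intensity-dependent prior, 2 residual degrees of freedom), with Benjamini-Hochberg adjustment over the 9301 tested probe sets. The pipeline was tested on simulated data in which every array had the same spread. That cannot check the spread assumed for the array with ectopic Bdh2.

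Gene symbols came from the array's annotation; 10802 probe sets had 1 symbol, 135 several and 4680 none. All 11 probe sets described kept their symbol in RefSeq. Lists used the probe set with the highest mean per gene. Text names every member, up to 4 genes per muscle list by the smallest p against Bdh2 morphants, and the 8 nearest profiles; marker genes beyond these were named after their values were seen. Members and lists were chosen with earlier results of these data known. Alternatives covered moderation, filter, scaling, the added constant, probe sets per gene, the replicate number as a block and single arrays left out.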

Additional observations from a re-analysis of the deposited data

How the results depend on the processing

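With ectopic Bdh2, all 11 probe sets were lower than in Bdh2 morphants and in control morphants under each of the 14 alternatives that could be run (10 of 10 with 1 probe set per gene). The count called against Bdh2 morphants was 0 with the prior without an intensity trend and ran from 0 to 11 with 1 array left out, and the median from -3.36 to -2.83; the cause of the change was not tested. Against control morphants the count ran from 10 to 11 with 1 array left out and was 8 to 11 elsewhere. Between Bdh2 morphants and control morphants it was 0 under all 15. Centring the arrays moved the median of all tested probe sets from 0.12 to -0.08 for ectopic Bdh2 minus Bdh2 morphants and from -0.01 to 0.10 for Bdh2 minus control morphants, and quantile normalisation moved the first of these to 0.01. In the second comparison, centring turned the second probe set of mylpfa to 0.0089, myl13 to 0.084 and myl10 to 0.099. With 1 array left out, these ran from -0.24 to 0.047, from -0.19 to 0.16 and from -0.32 to 0.31, and pvalb3 ran from -0.16 to 2.16. Against Bdh2 morphants, atp2a1l ran from -2.37 to 0.91 and myod1 from -0.87 to 0.24 with ectopic Bdh2. The groups share only a replicate number: deviations of same-numbered arrays from their group means correlated at r = 0.54. With 2 arrays in a group the 2 pairs mirror each other, so this is 1 correlation. With the replicate number as a block, the array with ectopic Bdh2 was put in block 1 as labelled. There 11 were called against Bdh2 morphants (median -3.13), beside 151 of all 9301 tested probe sets. Against control morphants 11 were called (median -3.56), beside 135 of all tested probe sets, and 0 between the other groups. In that fit 4 of 11 had an unadjusted limma p under 0.05 between Bdh2 morphants and control morphants. As reported it was 1 of 11, beside 194 of all 9301 tested probe sets. How many of all tested probe sets had such a p in the block fit was not counted. Between these groups 3 of all tested probe sets were called in the block fit, against 0 as reported. With the array with ectopic Bdh2 in block 2 the counts called were 11, 10 and 0, beside 823, 393 and 3 of all tested probe sets. In that fit atp2a1l turned to 0.20, pvalb5 to 0.0097 and myod1 to 0.017. Calls over all tested probe sets with ectopic Bdh2 ran from 0 to 823 against Bdh2 morphants (49 as reported) and from 38 to 393 against control morphants (62 as reported), highest with the block. The fit without the array with ectopic Bdh2 was chosen after seeing the data.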

Other observations

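For some muscle genes the replicates of a group lay far apart; they were picked after their values were seen. The fast troponin I gene tnni2b.1 read 184 with ectopic Bdh2, 817 and 5307 in Bdh2 morphant replicates 1 and 2, and 980 and 4125 in control morphant replicates 1 and 2. The calcium pump gene atp2a1l read 138 with ectopic Bdh2, 776 and 65.7 in Bdh2 morphants, and 1223 and 892 in control morphants, so that Bdh2 morphant replicate 2 was the lowest array there. The muscle differentiation factor myog read 242 with ectopic Bdh2, 145 and 285 in Bdh2 morphants, and 314 and 820.2 in control morphants.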
